A study of Homo sapiens with 24 samples.

Results

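The phosphodiesterase genes PDE4A, PDE4B, PDE4C, PDE4D and PDE6G were examined in HCT116 colorectal cancer cells and in their oxaliplatin-resistant derivative HCT116 oxpl-R. The 5 genes were taken by symbol from a table of 33113 genes, and all 5 were present in it. They were chosen from measured values of these same samples. PDE4B stood among the genes with the largest decrease in the untreated resistant cells, and the values on which PDE6G was chosen are not recorded. The untreated difference between the lines is therefore given for all 5 genes as a description with no test, and so is every comparison of PDE6G, since any of them may have entered its choice.

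HCT116 is an established human colorectal carcinoma line, and HCT116 oxpl-R was derived from it by repeated pulses of oxaliplatin, a platinum drug that forms DNA adducts. Both lines carried a doxycycline-inducible gene for adenovirus E1A (genotypes HCT116 TetOn-E1A and HCT116 oxpl-R TetOn-E1A), the untreated controls included. Each line was sequenced as an untreated control, after doxycycline at 0.5 µg/mL (E1A), after oxaliplatin at 25 µM for 24 h, and after both (E1A + oxaliplatin), where doxycycline preceded oxaliplatin by 3 h. Each of the 8 groups held 3 samples named as biological replicates, 24 in all. The controls received no doxycycline, so effects of E1A and of doxycycline itself cannot be told apart.

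The libraries held 24838095 to 37927720 counts. The E1A transcript (Ad5-E1A) was counted 114 to 342 times in libraries without doxycycline and 5687 to 26996 times in those with it. No library thus went against its doxycycline label, and this does not check the labels of oxaliplatin or line. The lowest induced library was HCT116 E1A + oxaliplatin replicate 1, at 199 CPM of Ad5-E1A beside 537 and 494 in its own group. It correlated best with HCT116 oxaliplatin replicate 3 (r = 0.985 on log2 CPM, against 0.971 with its closest own replicate), and the reverse was also true (0.985 against 0.968). In all, 9 of the 24 libraries correlated best with a library of another group. Among them, HCT116 oxpl-R oxaliplatin replicate 3 was closest to untreated HCT116 oxpl-R replicate 3 (0.976, against 0.970 with its closest own replicate). Values without the libraries that matter are given where they change a call. Of 7 colorectal epithelial markers, 5 or 6 reached a mean of 10 counts in each group, with a summed level of 5124 to 16320 CPM. CDH17 and LGALS4 were little counted, with means of 3.2 and 9.5 over the untreated samples, so the sum rests on the other markers. The 9 leukocyte, endothelial and fibroblast markers summed to 14.0 to 54.1 CPM.

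Phosphodiesterases end cyclic nucleotide signals by hydrolysing cAMP or cGMP. The 4 PDE4 genes encode cAMP-specific enzymes, the targets of rolipram and roflumilast, which are placed near their substrate by anchoring proteins. Protein kinase A can raise the activity of some of their forms. PDE6 is the cGMP phosphodiesterase of photoreceptors, in which PDE6A and PDE6B form the catalytic core of rods, and PDE6G encodes the small inhibitory gamma subunit that transducin removes in light. In colonic epithelium cAMP is best known for driving chloride secretion.

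The genes differ greatly in extent. In GENCODE v44 on GRCh38, PDE4A lies at chr19:10416773-10469630 on the plus strand and spans 52.9 kb, and PDE4B lies at chr1:65792514-66374579 on the plus strand and spans 582.1 kb. PDE4C occupies 40.2 kb at chr19:18207965-18248200, PDE4D 1553.1 kb at chr5:58969038-60522120, and PDE6G 12.7 kb at chr17:81650459-81663112, all on the minus strand. The first part of PDE4A is overlapped on the opposite strand by CDC37, which held a mean of 12770 counts, and PDE4C is covered on its own strand by an unnamed protein-coding gene that was not used here. The strand setting of the counting was not given in the sources used here, so shared reads cannot be separated at these overlaps. PDE4B-AS1, opposite PDE4B, held 0 counts in every library.

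The RefSeq promoter windows (250 bases before each listed start and 50 from it onward, GRCh38.p14) number 5 for PDE4A, 6 for PDE4B, 4 for PDE4C and 8 for PDE4D, and PDE6G was not matched. The first windows of PDE4A and PDE4B are shown, picked because they differ in letters read by the cAMP-responsive factor CREB. Capitals mark TGACG on either strand, the core of the cAMP response element TGACGTCA, and each full element holds 2 overlapping cores.
PDE4A, chr19:10416623-10416792, plus strand: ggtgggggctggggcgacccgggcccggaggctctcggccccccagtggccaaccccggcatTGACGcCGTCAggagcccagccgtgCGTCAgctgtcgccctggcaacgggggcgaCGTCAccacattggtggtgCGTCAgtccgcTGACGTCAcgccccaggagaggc
PDE4B, chr1:65792360-65792529, plus strand: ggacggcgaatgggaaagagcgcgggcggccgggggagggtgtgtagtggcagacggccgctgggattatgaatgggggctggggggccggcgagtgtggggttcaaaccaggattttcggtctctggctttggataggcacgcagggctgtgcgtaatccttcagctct
Each stretch covers 150 bases before the first start and 20 from it onward. That of PDE4A held 7 core matches and 1 full element that begins 3 bases before the start, and that of PDE4B held 0 of either. Over 35116 windows of 300 bases, 1.85% held the full element and 24.6% a core. Windows 2 to 5 of PDE4A held 0 of either, as did all windows of PDE4B. Which start these cells use was not measured. These are matches of letters, not measured binding.

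PDE4B was the gene with the widest range in the family. In untreated HCT116 it measured 102, 116 and 82.1 CPM (counts scaled to the size of the library, normalised by TMM), with 3049, 3461 and 2299 counts. Untreated HCT116 oxpl-R had 0, 2 and 8 counts, or at most 0.288 CPM. All 3 parental samples lay far above all 3 resistant ones, and the summed counts were 821 times higher in the parental line (95% exact interval 446 to 1712, counting error only). The fitted log2FC was −9.62, a value that rests on the few resistant counts and moved from −9.11 to −11.21 when single replicates were left out. Across genes tested, 28.3% passed the threshold in this comparison, from which the choice of PDE4B came. Fewer cells expressing a gene and less RNA per cell cannot be told apart in bulk samples.

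The near absence of PDE4B held in each treated condition, in samples other than the untreated ones that the choice used. Under oxaliplatin HCT116 measured 30.7, 40.2 and 61.5 CPM, and HCT116 oxpl-R had 0, 1 and 2 counts. Under E1A the parental samples stood at 55.2, 50.4 and 50.02 CPM, and the resistant samples had 12, 1 and 0 counts. With both treatments the parental samples measured 28.8, 36.5 and 42.3 CPM, and the resistant samples had 0, 0 and 1 counts. No resistant sample approached a parental one in any condition. The line difference was downregulation of PDE4B by a log2FC of −10.12 (SE 0.58, adjusted p = 8.18e-07) under oxaliplatin, −8.40 (SE 0.54, adjusted p = 1.96e-06) under E1A and −11.36 (SE 0.50, adjusted p = 1.51e-09) under both, by edgeR's quasi-likelihood test. The ratio of summed counts, parental over resistant, was 1203 (411.5 to 5838), 367 (215 to 691) and 3686 (661 to 1.46e+05) in the same order, and the intervals cover counting error only. Single libraries carried the resistant counts, 12 of 13 under E1A lying in replicate 1 and the only count under both treatments in replicate 3. With single replicates left out, the fitted log2FC ran from −9.53 to −10.98 under oxaliplatin, from −7.84 to −11.16 under E1A and from −10.93 to −13.09 under both.

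**Figure D1:**
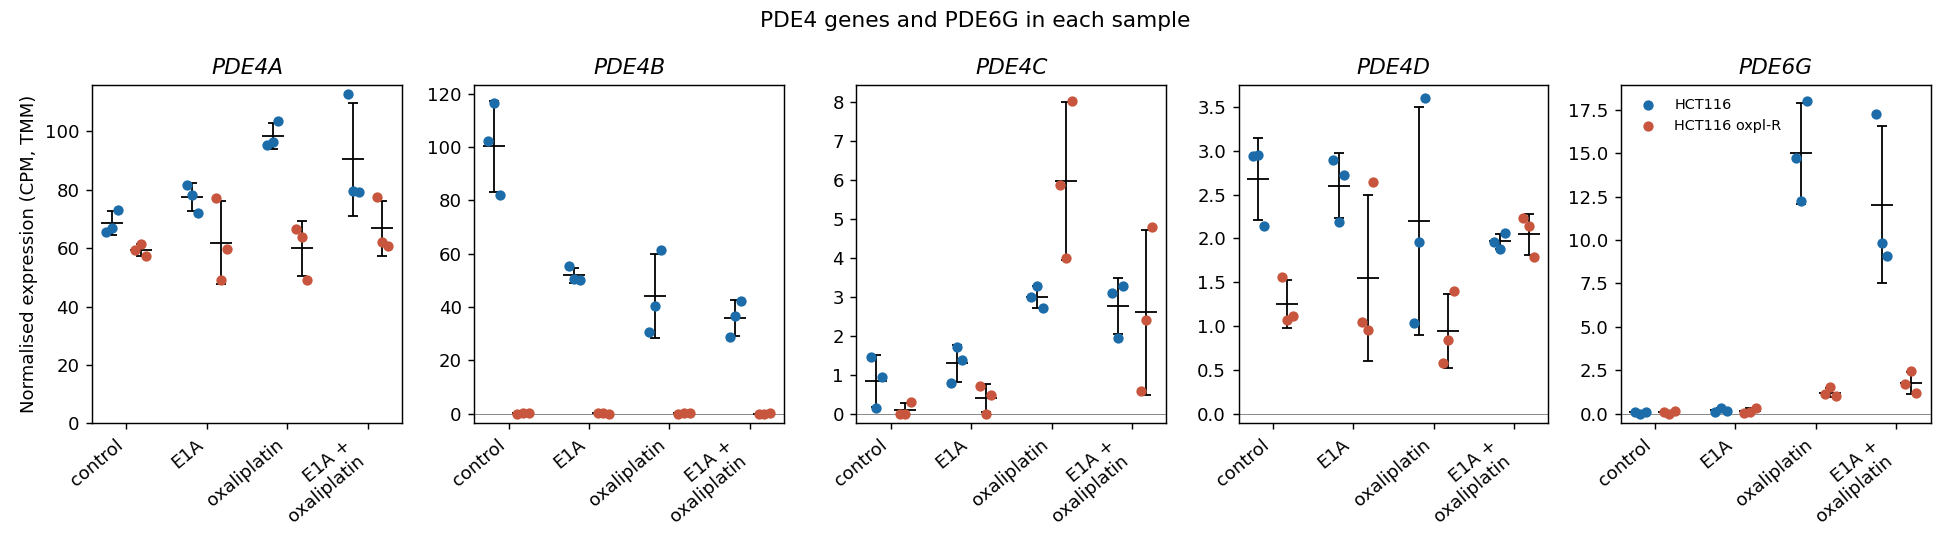
Normalised expression (CPM, linear axis from 0) of the 5 genes in each of the 24 samples, by treatment, with HCT116 in blue and HCT116 oxpl-R in red; points are samples and black bars the mean ± SD of 3. PDE4B is near 0 in all 12 resistant samples, and PDE6G reaches 9.07 to 18.0 CPM only in the 6 parental samples given oxaliplatin.

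Within HCT116, PDE4B was lower after each treatment. The untreated mean of 100.1 ± 17.2 CPM (SD, n = 3) compared with 51.9 ± 2.87 under E1A, 44.1 ± 15.8 under oxaliplatin and 35.9 ± 6.78 under both, and the untreated samples did not overlap with any treated group. E1A downregulated PDE4B by a log2FC of −0.998 (SE 0.12, adjusted p = 1.34e-05), and oxaliplatin by −1.10 (SE 0.24, adjusted p = 0.0107). The latter call was lost without HCT116 control replicate 2 (log2FC −0.99, adjusted p = 0.0562). These 2 responses share the untreated samples that entered the choice of the gene. Oxaliplatin on top of E1A gave −0.46 (SE 0.18, adjusted p = 0.129), although the groups did not overlap, and −0.35 (adjusted p = 0.0387) without HCT116 E1A + oxaliplatin replicate 1. E1A on top of oxaliplatin gave −0.31 (SE 0.27, adjusted p = 1.00). The E1A by oxaliplatin term was 0.67 (SE 0.31, adjusted p = 0.957) with all samples. Without HCT116 oxaliplatin replicate 3 and HCT116 E1A + oxaliplatin replicate 1 it was 1.10 (SE 0.19, adjusted p = 1.05e-07), a fit chosen after seeing the data in which 2345 genes passed in place of 0. In the fit of all 24 samples the E1A response of PDE4B did not pass (log2FC −0.95, adjusted p = 0.475).

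PDE4A, a widely expressed family member, was the only PDE4 gene with a mean of at least 59.3 CPM in all 8 groups. Untreated HCT116 measured 65.6, 67.1 and 73.2 CPM and untreated HCT116 oxpl-R 59.3, 61.4 and 57.3 CPM, a log2FC of −0.20 with no overlap of the samples. Oxaliplatin raised it in HCT116 to 95.3, 96.5 and 104 CPM (log2FC 0.60, SE 0.12, adjusted p = 0.00799), and all treated samples exceeded all untreated ones. In HCT116 oxpl-R the oxaliplatin samples stood at 66.7, 63.8 and 49.3 CPM, on both sides of the untreated level (log2FC 0.02, SE 0.19, adjusted p = 0.976). Under oxaliplatin PDE4A was lower in the resistant line (log2FC −0.81, SE 0.21, adjusted p = 0.0157). This last call was lost without HCT116 oxaliplatin replicate 1 (adjusted p = 0.0810), without replicate 2 (0.0790) or without HCT116 oxpl-R oxaliplatin replicate 3 (0.0674). The oxaliplatin response was lost without HCT116 control replicate 1 (0.0601) or replicate 2 (0.0597). With E1A present, oxaliplatin gave 0.31 in HCT116 (SE 0.19, adjusted p = 0.352) and 0.08 in HCT116 oxpl-R (SE 0.20, adjusted p = 0.889). The oxaliplatin by line term with E1A was −0.21 (SE 0.29) and did not pass. Whether the oxaliplatin response differed between the lines without E1A was not tested. E1A alone gave 0.13 and 0.06, and neither passed. Neighbouring groups in the order of PDE4A levels all overlapped.

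PDE4C was low throughout and rose with oxaliplatin. In HCT116 it was counted 43, 4 and 26 times in untreated samples and 83, 90 and 86 times under oxaliplatin. In HCT116 oxpl-R the untreated counts were 0, 0 and 8, and those under oxaliplatin 171, 105 and 200. Treated and untreated samples did not overlap in either line. The untreated lines differed by a log2FC of −3.04, which ran from −2.37 to −7.56 when single replicates were left out. The oxaliplatin response was a log2FC of 1.90 in HCT116 (SE 0.57, adjusted p = 0.0370) and 5.87 in HCT116 oxpl-R (SE 0.75, adjusted p = 0.000597). The resistant baseline of 8 counts makes the second value depend on 1 library, and without HCT116 oxpl-R control replicate 3 it was 10.34. The ratio of summed counts in the resistant line was 60.5 (30.4 to 141, counting error only). Whether the response differed between the lines without E1A was not tested. With E1A, the oxaliplatin by line term in edgeR was 1.48 (SE 0.85, adjusted p = 0.790). The parental response was lost in 6 alternatives, among them those without HCT116 control replicate 3 (adjusted p = 0.137) and without HCT116 oxaliplatin replicate 1 (0.0687) or 2 (0.0679).

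Under oxaliplatin PDE4C reached its highest group mean, 5.96 ± 2.02 CPM in HCT116 oxpl-R against 2.99 ± 0.275 in HCT116 (n = 3 each), and these groups did not overlap. Their difference was 0.92 (SE 0.35, adjusted p = 0.0809), in DESeq2 0.95 (adjusted p = 0.0352), and 1.15 (adjusted p = 0.0440) without HCT116 oxpl-R oxaliplatin replicate 2. With E1A present, oxaliplatin raised PDE4C in HCT116 from 22, 49 and 36 counts to 88, 57 and 97 (log2FC 1.18, SE 0.35, adjusted p = 0.0401), a call lost without any 1 of the 3 HCT116 E1A samples (adjusted p = 0.247, 0.0907 and 0.146) and without HCT116 E1A + oxaliplatin replicate 3 (0.0924). In HCT116 oxpl-R the counts went from 24, 0 and 15 to 20, 74 and 180, which overlap (log2FC 2.64, SE 0.80, adjusted p = 0.129). The labels give no pairing, but replicate numbers met the rule for pairing given with the processing. The fit with the replicate block gave 2.49 (SE 0.44, adjusted p = 1.16e-06). With no block, the difference passed without HCT116 oxpl-R E1A replicate 1 (adjusted p = 0.0145) or 3 (1.56e-06), and without HCT116 oxpl-R E1A + oxaliplatin replicate 1 (0.00862). E1A added to oxaliplatin in the resistant line gave −1.21 (SE 0.48, adjusted p = 0.452). That difference passed without HCT116 oxpl-R oxaliplatin replicate 2 (adjusted p = 0.00567) and without HCT116 oxpl-R E1A + oxaliplatin replicate 3 (0.00413).

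PDE4D, the family member with the longest gene, was also low, at 0.583 to 3.60 CPM over all samples. Untreated HCT116 had 88, 88 and 60 counts and untreated HCT116 oxpl-R 39, 31 and 31, with no overlap (log2FC −1.10). Under oxaliplatin the parental samples spread from 29 to 54 to 114 counts, and the resistant samples had 17, 22 and 35. Replicate numbers met the same rule for pairing here, which the labels do not give. The line difference was −1.31 (SE 0.52, adjusted p = 0.0951), and −1.24 (SE 0.44, adjusted p = 0.0450) with the replicate block. Without HCT116 oxaliplatin replicate 1 it was −1.61 (adjusted p = 0.0252). Oxaliplatin itself gave −0.20 in HCT116 (SE 0.40, adjusted p = 0.737), and −0.81 (adjusted p = 0.0424) without HCT116 oxaliplatin replicate 3. With both treatments the lines measured 1.97 ± 0.0888 and 2.05 ± 0.235 CPM (log2FC 0.06, SE 0.31, adjusted p = 0.918). In HCT116 oxpl-R the 17, 22 and 35 counts under oxaliplatin stood beside 76, 66 and 67 with E1A added, which do not overlap (log2FC 1.11, SE 0.42, adjusted p = 0.395). Under E1A the line difference was −0.61 (SE 0.40, adjusted p = 0.343). That value was −1.30 (adjusted p = 0.00452) without HCT116 oxpl-R E1A replicate 3, which held 83 counts against 36 and 25.

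Without 1 library of the E1A-treated resistant cells, other members also passed between the lines under E1A. PDE4C then differed by −2.29 without HCT116 oxpl-R E1A replicate 1 (adjusted p = 0.0457) and by −1.74 without replicate 3 (adjusted p = 0.0117), and PDE4A by −0.45 without replicate 1 (adjusted p = 0.0494). With all samples PDE4C gave −1.57 (SE 0.76, adjusted p = 0.190) and PDE4A −0.22 (SE 0.17, adjusted p = 0.432).

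Levels of different genes were set side by side per kilobase of canonical transcript. Each gene had 1 length, and the isoforms in use were not measured. On this scale PDE4B was the main PDE4 transcript of untreated HCT116. It made up 60.1 ± 5.42% of the summed PDE4 level, and PDE4A 38.6 ± 5.34%. The sum was 36.6 ± 3.13 CPM per kb in untreated HCT116 and 12.3 ± 0.364 in untreated HCT116 oxpl-R, where PDE4A made up 98.4 ± 0.504%. In treated HCT116 the sum was 27.8 ± 1.5 (E1A), 30.7 ± 4.50 (oxaliplatin) and 27.2 ± 2.74 (both), and PDE4B's share was 41.1, 31.1 and 29.6%. In treated HCT116 oxpl-R the sum was 12.9 ± 3.00, 13.5 ± 1.55 and 14.4 ± 1.59 CPM per kb. Under oxaliplatin PDE4A's share there was 90.0 ± 4.52%, with PDE4C at 1.19 ± 0.401 CPM per kb. The lowest parental sample, at 24.9 CPM per kb, lay above the highest resistant one, at 16.2.

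PDE6G was close to 0 without oxaliplatin and measurable with it. Untreated HCT116 had 3, 0 and 3 counts and HCT116 under oxaliplatin 410, 338 and 571. Untreated HCT116 oxpl-R had 2, 0 and 4 counts and the same line under oxaliplatin 32, 40 and 25. In both lines the lowest treated sample exceeded the highest untreated one. The ratio of summed counts was 221 (101.4 to 604) in HCT116 and 16.4 (7.28 to 45.9) in HCT116 oxpl-R, counting error only. The fitted log2FC was 7.76 and 3.94. The untreated lines, with 6 summed counts each, differed by 0.11, a value that changed sign with single replicates left out (−0.75 to 0.68). Under oxaliplatin the resistant line measured 1.10, 1.52 and 1.00 CPM against 14.7, 12.3 and 18.0 in the parental line, a log2FC of −3.72.

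With E1A present, HCT116 went from 3, 10 and 4 counts of PDE6G to 492, 287 and 269 when oxaliplatin was added (fitted log2FC 5.95). HCT116 oxpl-R went from 2, 3 and 10 to 58, 75 and 44 (log2FC 3.35). The samples did not overlap in either line. The ratio of summed counts was 58.6 in HCT116 (lower 95% bound 36.4) and 10.6 (6.25 to 19.3) in HCT116 oxpl-R, counting error only. Under both treatments PDE6G measured 1.77 ± 0.631 CPM in the resistant and 12.04 ± 4.51 CPM in the parental line (n = 3 each), a log2FC of −2.77 with no overlap, and −2.42 without HCT116 E1A + oxaliplatin replicate 1, the highest of its group. E1A without oxaliplatin left PDE6G at 17 summed counts in HCT116 and 15 in HCT116 oxpl-R (log2FC 1.46 and 1.10 against 6 summed counts in each control). No p is given for these values, and whether the fold of PDE6G differed between the lines was not tested here.

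The subunits that PDE6G serves in photoreceptors were scarcely counted. PDE6A had at most 5 counts in any library, PDE6B at most 4 and PDE6C, the cone catalytic subunit, at most 14, and PDE6H, the cone gamma subunit, had 0 in all. PDE6D, a prenyl-binding chaperone expressed in many tissues, had 454 to 2121. Per kilobase of canonical transcript, with isoforms again not measured, PDE6G reached 15.2 ± 2.93 CPM in oxaliplatin-treated HCT116. There PDE4B stood at 9.74 ± 3.48 and PDE4A at 20.1 ± 0.912.

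**Figure D2:**
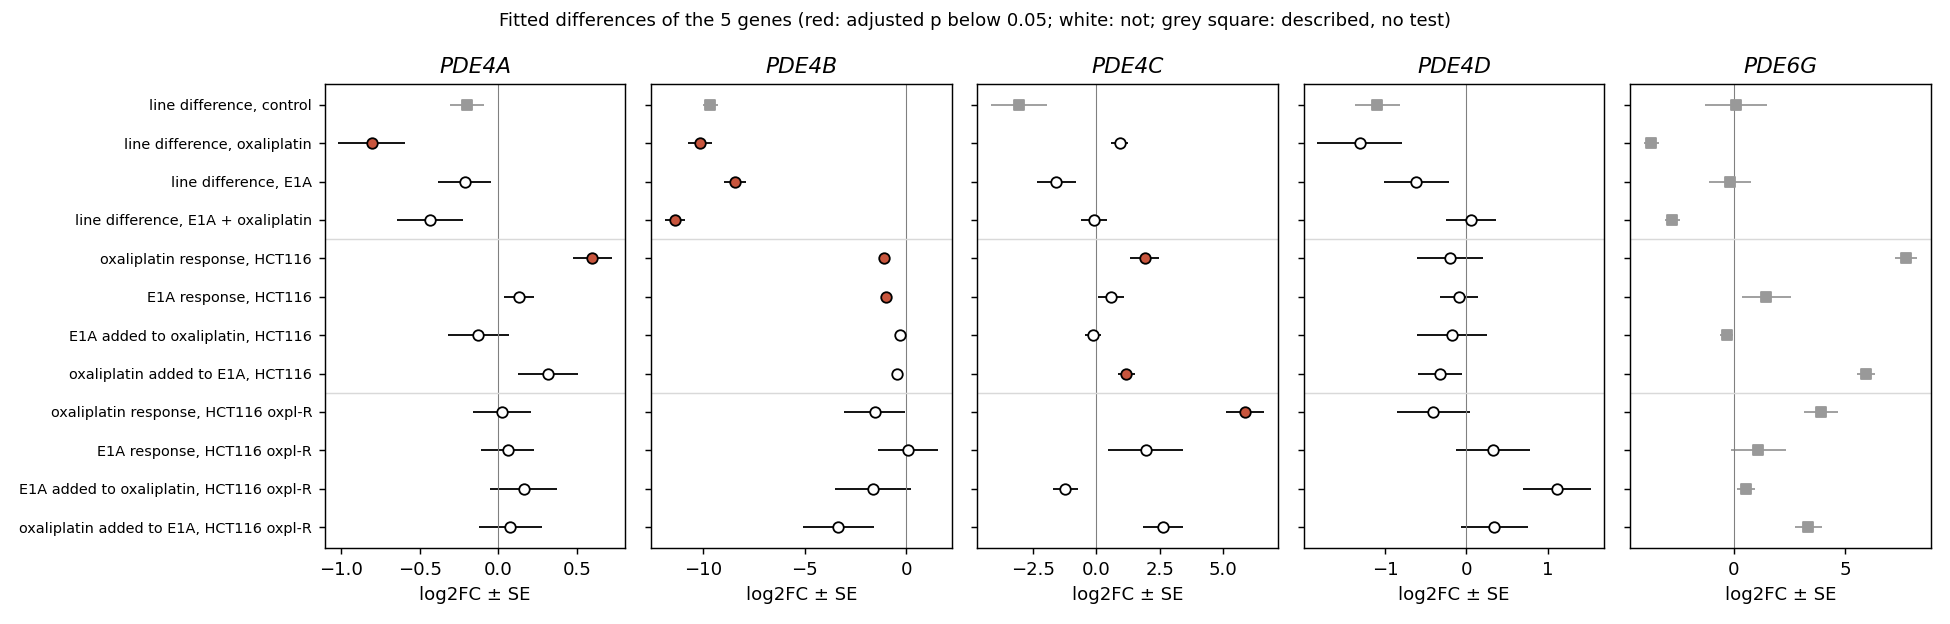
Fitted log2FC ± SE of the 5 genes (columns, each with its own axis) in the 12 comparisons of 2 groups (rows), with red for adjusted p below 0.05, white for values that did not pass and grey squares for described values with no test. PDE4B is at −8.40 or lower in every line difference, and PDE6G is at 3.35 or higher in every comparison that adds oxaliplatin.

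Beside these counts stand the shares of all genes that passed. Of the 4 PDE4 genes, 2 passed between the lines under oxaliplatin, 1 under E1A and 1 under both, where 20.7, 17.7 and 18.5% of all genes passed. PDE4B was 1 of the 2 under oxaliplatin and the only gene called under E1A and under both. It was chosen with its untreated line difference known, so these counts cannot be weighed against those shares. In HCT116, 3 passed for oxaliplatin (23.3% of all genes), 1 for E1A (9.5%) and 1 for oxaliplatin added to E1A (10%). Comparisons with an untreated control, in either line, share samples that entered the choice of PDE4B. It was the gene called for E1A and 1 of the 3 called for oxaliplatin. In HCT116 oxpl-R, 1 passed for oxaliplatin (4.12%) and 0 for oxaliplatin added to E1A (2.06%). In the latter 1 PDE4 gene had an unadjusted p below 0.05 in edgeR, and DESeq2 and limma called 0. None passed in edgeR for E1A in HCT116 oxpl-R (0.0755% of all genes) or for E1A added to oxaliplatin in HCT116 (0.0246%). In both, 0 PDE4 genes had an unadjusted p below 0.05 in edgeR, and DESeq2 and limma called 0. For E1A added to oxaliplatin in HCT116 oxpl-R 0 passed (0.638%). There 2 had an unadjusted p below 0.05 in edgeR, and DESeq2 and limma called 0. In the 4 interaction terms no PDE4 gene passed in edgeR or DESeq2 with all 12 samples. In each term 1 had an unadjusted p below 0.05 in edgeR. For oxaliplatin by line with E1A 0.0708% of all genes passed, and for E1A by line with oxaliplatin 0.0111%. For E1A by oxaliplatin 0% of all genes passed in edgeR in both lines. In HCT116 826 genes had an unadjusted p below 0.05 and DESeq2 called 14, and in HCT116 oxpl-R these numbers were 471 and 10.

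The other genes of cyclic nucleotide signalling were followed in 6 lists of 107 genes. Between untreated lines 33 of the 97 tested passed, 7 higher and 26 lower in HCT116 oxpl-R. This is 34%, against 28.3% of all genes, of which 2363 were higher and 2374 lower. With all 24 samples in one fit 21 pathway genes passed in place of 33. PRKACB, a catalytic subunit of protein kinase A, was downregulated by a log2FC of −3.40 (SE 0.16, adjusted p = 1.73e-08). AKAP12, an anchoring protein that binds protein kinase A and PDE4, was downregulated by −2.77 (SE 0.16, adjusted p = 5.85e-08). The study displayed PDE4B, PRKACB and AKAP12 as leading genes of these samples. The adjusted p of PRKACB and AKAP12 thus come from values already known and are not independent tests. For the same reason the lists that hold them are not independent evidence of a direction.

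Of 17 anchors and partners of PDE4 tested, 1 was higher and 7 were lower, with a median log2FC of −0.42 beside 0.08 over all genes. AKAP13 fell by 0.99 (log2FC −0.99) and AKAP8, a nuclear anchor, was raised by 0.46. Among 21 cAMP effectors 2 were higher and 5 lower, with PKIB, a protein kinase A inhibitor, at −1.44 and POPDC3, a cAMP-binding membrane protein, at 0.85. The repressor and activator gene CREM stood at 0.50. Of 15 genes of cAMP synthesis 1 was higher and 4 were lower, among them GNAI1, the inhibitory G protein subunit, at −1.84 and the adenylyl cyclase ADCY7 at −0.97. Of 13 cAMP-induced genes 1 was higher and 6 were lower, led by the nuclear receptor NR4A2 at −2.70 and the clock gene PER1 at −1.79. RGS2, a regulator of G protein signalling, went the other way at 2.40. Among 15 other phosphodiesterases tested 1 was higher and 3 were lower, with the cAMP-specific PDE8A at −0.59 and PDE7A at −0.52 and the dual-specificity PDE2A at 0.82. Of 16 genes of cGMP synthesis and phototransduction 1 was higher and 1 was lower, the latter GNB1 at −0.33. All genes named here passed the test.

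In the treated conditions the share of pathway genes that passed between the lines was near that of all genes. Under oxaliplatin 4 were higher and 15 lower of 93 tested (20.4%, against 20.7% of all genes, with 1597 higher and 1783 lower). Under E1A 4 were higher and 15 lower of 97 (19.6% against 17.7%, with 1820 higher and 1221 lower of all genes). Under both 3 were higher and 14 lower of 98 (17.3% against 18.5%, with 1708 higher and 1418 lower). Whether the split of the lists by direction differs from that of all genes was not tested.

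Within HCT116, 11 pathway genes were higher and 14 lower of 92 after oxaliplatin (27.2% against 23.3% of all genes), with PRKACB at −1.10, PDE7B at −3.12 and PDE2A at 0.92. For E1A 6 were higher and 9 lower of 93 (16.1% against 9.5%), with JUNB, an AP-1 gene, at 2.28 and PRKACB at −1.16. In HCT116 oxpl-R 1 of 98 passed for oxaliplatin (1.02% against 4.12%) and 1 of 97 for E1A (1.03% against 0.0755%), the latter JUNB at 1.88. PDE7B and JUNB fall outside the naming rule and were chosen after their values were seen. PDE7B was little counted, with a mean of 16.5 over untreated and E1A samples of HCT116 and 2 over those given oxaliplatin.

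Over the 24 samples, the 5 genes most like PDE4B in log2 CPM among 10041 genes were PCDH7 (Pearson r = 0.996), DDX3Y (0.995), CYP24A1 (0.994), HTR7 (0.988) and RPS4Y1 (0.987), and the most opposite were KLK11 (−0.984) and LCN2 (−0.983). The samples fall into 2 lines, so these values mainly order genes by their line difference. DDX3Y and RPS4Y1 are genes of chromosome Y. The protocadherin gene PCDH7 measured 60.8 CPM in untreated HCT116 and 0.185 in untreated HCT116 oxpl-R, with 30.1, 26.8 and 22.8 CPM in parental cells under E1A, oxaliplatin and both.

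The genes most like PDE6G were GZMM (r = 0.961), NAGS (0.942), PRSS22 (0.939), GALT (0.938) and CLU (0.934), and the most opposite RPL3 (−0.969) and PIGQ (−0.961). RPL3, a ribosomal protein gene, went from a mean of 3400 CPM in untreated to 921 in oxaliplatin-treated HCT116 and from 4360 to 2530 in HCT116 oxpl-R. The serine protease gene GZMM went from 0.409 to 5.46 CPM and from 0.508 to 1.21 CPM.

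PDE4A resembled CIC and LRFN1 (both r = 0.962), MED15 (0.957), PHETA1 and FURIN (both 0.956), opposite NSMCE2 (−0.952) and MRPL48 (−0.948). Lower values were found for PDE4C, with H19 (0.892), RHOC (0.891), ABCB9 (0.871), FBXO44 (0.868) and CIBAR2 (0.867) on one side and PRR11 (−0.888) and HADH (−0.841) on the other. For PDE4D they were lowest, with IFT70A (0.809), NEK1 (0.783), NEMP1 (0.783), EPC2 (0.779) and KLHL5 (0.777), opposite AKR1A1 (−0.838) and ENTR1 (−0.828). Between members r ran from −0.122 (PDE4C and PDE4D) to 0.720 (PDE4A and PDE6G). The samples share lines, treatments and depth, so these are descriptions.

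Genes with a start within 1000000 bases were compared next. Around PDE4B 5 of 18 held a mean of 10 counts, and between untreated lines 2 of them were higher and 2 lower, from −1.18 to 0.68. The nearest of them, LEPR, stood at −0.49 (SE 0.33, adjusted p = 0.320), so none of these neighbours approached the −9.62 of PDE4B. Around PDE4C 34 of 50 tested genes were higher and 0 lower after oxaliplatin in HCT116 (median log2FC 0.65), and around PDE4A 22 of 37 were higher and 1 lower (0.67), where 23.3% of all genes passed in either direction. CDC37, which overlaps PDE4A, stood at 0.20 (SE 0.13, adjusted p = 0.344), and ICAM3, nearest on the other side, at 1.04 (adjusted p = 0.0122). Beside PDE4C, RAB3A stood at 1.16 (adjusted p = 0.00229) and IQCN at 0.76 (adjusted p = 0.0347). In HCT116 oxpl-R 2 of the 50 neighbours of PDE4C were higher and 1 lower after oxaliplatin, and of those of PDE4A 0 were higher and 1 lower. Around PDE6G 9 of 50 were higher and 5 lower after oxaliplatin in HCT116 (median 0.06). Between untreated lines 3 of these 50 were higher and 21 lower (median −0.30), beside 0.11 for PDE6G, and under oxaliplatin 2 were higher and 16 lower (median −0.35), beside −3.72. The lowest of them then stood at −2.87. After oxaliplatin in HCT116, OXLD1, whose start lies 3.5 kb from that of PDE6G, rose by 0.89 (SE 0.16, adjusted p = 0.00481). NPLOC4, at 14.6 kb, stood at −0.21 (adjusted p = 0.293) in the same comparison. Between the lines under oxaliplatin these 2 genes stood at −0.31 and 0.03, and neither passed.

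Gene span moved with the oxaliplatin response of HCT116 over all protein-coding genes with a mean of 10 counts. The median log2FC was 0.39 for 3580 genes under 20 kb, −0.11 for 3106 genes of 20 to 60 kb, −0.36 for 2472 genes of 60 to 200 kb, −0.51 for 613 genes of 200 to 500 kb and −0.91 for 108 genes over 500 kb. In the last range 38.9% were lower and 0.926% higher. PDE4B, of 582.1 kb, had −1.10, close to the median of its range, and PDE4D, of 1553.1 kb, had −0.20. PDE4A and PDE4C, of 52.9 and 40.2 kb, had 0.60 and 1.90 against a range median of −0.11, and PDE6G, of 12.7 kb, had 7.76 against 0.39. In HCT116 oxpl-R the medians ran from 0.06 to −0.36. For E1A in HCT116, where PDE4B had −0.998, the median of genes over 500 kb was 0.04. The part of gene span in the members' values was not tested.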

How the data were processed

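Total RNA was extracted, and libraries built with an mRNA kit were sequenced as paired reads in 24 samples. According to the labels and the study's methods, the authors trimmed reads with Trimmomatic, quantified them with Salmon 1.6.0 on GRCh38 with GENCODE release 47, and summed transcripts to genes. The deposited table of estimated counts was used after rounding to whole numbers, which moved 15.9 to 30.4% of the values in a sample. A second deposited table, named TPM by the authors, sums to 28004261 or more per sample and was read as length-scaled estimated counts. The last row of each table, which has no line end, was left out.

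Each comparison of 2 groups was fitted on its 6 samples and each interaction on 12, with edgeR 4.0.16 (R 4.3.3; TMM, quasi-likelihood test, no low-count filter beyond 1 count in the fit, Benjamini-Hochberg over all such genes, threshold 0.05). Alternatives were RLE factors, filterByExpr, DESeq2 1.42.0, all 24 samples in one fit, a replicate block, leaving out each replicate, and limma 3.58.1 on log2(value + 1) of the second table. The pipeline was tested on simulated data. No test of PDE6G was used, since its choice may rest on any of the comparisons. Replicate numbers were taken to pair the samples where all 3 same-numbered deviations correlated above 0.1: for the line difference under oxaliplatin (r = 0.141, 0.188 and 0.253) and for oxaliplatin added to E1A in HCT116 oxpl-R (0.419, 0.480 and 0.529). The labels give no such pairing, so it was inferred from these same data. No 2 replicates agreed within sampling noise. Levels per length used canonical transcripts of GENCODE v44.

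The members and gene lists were chosen with earlier results of these data known. Named were all members, from each list at most 2 highest and 2 lowest genes that passed between untreated lines with a mean of 20 counts, and for each member the 5 most similar and 2 most opposite genes with a mean of 50 counts in some group, overlapping genes and the nearest neighbours with a mean of 10 counts. Counting intervals are exact at 95%.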

Additional observations from a re-analysis of the deposited data

How the results depend on the processing

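Of 94 counts recomputed under other settings, 83 stayed within 1.5 times, and of 120 with a replicate left out 105 did. For single members, 431 of 453 values under other settings and 514 of 600 with a replicate left out kept their side of the threshold or, where described, their size, and none that had passed turned its direction; 22 calls were lost and 20 gained. The number of pathway genes passing between untreated lines was 33, 21 with all 24 samples in one fit and 24 to 39 with 1 replicate left out. With the replicate block, 1 member in place of 3 passed for oxaliplatin in HCT116. The block gave 1 in place of 0 for E1A added to oxaliplatin in HCT116 oxpl-R (PDE4C, log2FC −1.48). For oxaliplatin added to E1A in HCT116 oxpl-R it also gave 1 in place of 0, as did all 24 samples in one fit. Replicate numbers met the rule for pairing only in the last of these and for the line difference under oxaliplatin. The block changed no other count by over 1.5 times. With all 24 samples in one fit, 0 in place of 1 passed for E1A in HCT116. For oxaliplatin added to E1A in HCT116, filterByExpr, all 24 samples in one fit and limma each left 0 of 1. Limma left 0 of 1 for oxaliplatin in HCT116 oxpl-R. Leaving out 1 replicate gave 1 to 3 members for the line difference under oxaliplatin, 1 to 3 under E1A, 1 to 4 for oxaliplatin and 0 to 2 for oxaliplatin added to E1A in HCT116, and 0 to 1 for E1A added to oxaliplatin and for oxaliplatin added to E1A in HCT116 oxpl-R. Without the 2 parental libraries that resembled each other, 1 member in place of 0 passed for E1A by oxaliplatin in HCT116. Counts over all genes moved by over 1.5 times for most comparisons. Between lines they ran from 2747 to 4899 around 4737 for untreated cells and from 1996 to 3406 around 3041 under E1A. In HCT116 they ran from 2000 to 4748 around 3759 for oxaliplatin, from 84 to 1749 around 1559 for E1A, from 0 to 19 around 4 for E1A added to oxaliplatin and from 789 to 2317 around 1661 for oxaliplatin added to E1A. In HCT116 oxpl-R the same comparisons gave 533 to 1762 around 692, 7 to 72 around 13, 36 to 270 around 107 and 173 to 1766 around 357. The interactions gave 2 to 105 around 13 (oxaliplatin by line), 1 to 29 around 2 (E1A by line) and, around 0, at most 14 and 10 (E1A by oxaliplatin in HCT116 and HCT116 oxpl-R), apart from 2345 in HCT116 without the 2 libraries. The cause was not tested. Values of PDE4B in HCT116 oxpl-R, and of PDE4C and PDE6G without oxaliplatin, rest on so few counts that small differences there were not detectable at this depth.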
